A study of Homo sapiens with 4 samples.

Results

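Ribosomal protein genes were followed through SOX2 depletion in H520 and LK2, a pair of cell lines established from human squamous cell carcinomas of the lung. They were taken by symbol from the probes with 1 gene symbol, which gave 260 of 48801 probes and 169 of 18852 genes. Of these, 68 genes encode proteins of the cytosolic ribosome (43 of the large subunit and 25 of the small), and 75 encode proteins of the mitochondrial ribosome (47 large and 28 small). The remaining 26 symbols were 10 paralogues, 15 of pseudogene form and RPS19BP1, which is a binding protein of a subunit and not a subunit. Cytosolic ribosomal proteins under other symbols of these families were not analysed here.

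The study had 4 groups of 1 array each: H520 with scrambled control siRNAs, H520 with a pool of siRNAs against SOX2, and LK2 with either of the same reagents. Total RNA was taken 48 h after treatment in all 4 groups and measured on Illumina BeadChips. SOX2, a lineage transcription factor, was at 0.28 on the H520 control array and -0.38 with its siRNA, and at 0.14 and -1.97 in LK2, so that 63.5% and 23.1% of the control level remained (mean change -1.38 ± 0.31, limma SE, adjusted p = 0.330). All values are the authors' log2 values, which lie around 0 and are relative to a reference that is not stated. They were read as differences between arrays, and no signal level of a gene or of a cell type marker was taken from them. With 1 array per group a difference within a line has no replicate check, and no label states whether the RNA of different arrays was grown in separate dishes.

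The cytosolic ribosome translates nuclear messages, and its protein genes are among the most strongly and most evenly expressed genes of growing cells. Their mRNAs typically begin with a cytosine followed by a run of pyrimidines, the terminal oligopyrimidine (TOP) motif, through which mTOR and the RNA-binding protein LARP1 control their translation. The mitochondrial ribosome makes the few membrane proteins encoded by mitochondrial DNA, its proteins are imported from the cytosol, and its genes are controlled apart from those of the cytosolic ribosome.

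The start sites are shown because they separate the classes by a feature that no expression value was used to find. The sequences are RefSeq's for GRCh38.p14, 15 bases on each side of the annotated transcript start, for genes with the largest mean change of one sign in both lines. RPS2, RPL23A and MRPL13 rank among these genes too, but no window is given for them. In the cytosolic genes the capitals mark the pyrimidines that run on from the first transcribed base.
RPL34: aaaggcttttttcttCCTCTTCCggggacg
RPS7: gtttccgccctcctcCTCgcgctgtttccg
RPL13A: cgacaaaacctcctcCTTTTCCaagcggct
RPS3: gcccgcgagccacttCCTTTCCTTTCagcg
RPL21: cggccccgcctctttCCTTTCggccggaac
RPS3A: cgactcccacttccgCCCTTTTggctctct
The windows lie at chr4:108620561-108620590 (RPL34), chr2:3575245-3575274 (RPS7), chr19:49487593-49487622 (RPL13A), chr11:75399503-75399532 (RPS3), chr13:27251543-27251572 (RPL21) and chr4:151099613-151099642 (RPS3A), each on the plus strand. The run is 11 bases long in RPS3, 8 in RPL34 and 3 in RPS7, which falls short of the minimum of 5 used below.

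In the mitochondrial genes the capitals mark CCGGAAG or its reverse complement, the core of the site bound by ETS factors such as GABP. This core was not marked in the cytosolic genes, where the RPL34 window above also holds it as CTTCCGG.
MRPS22: ctcggaatccctcccaaccaCTTCCGGcgc
MRPL58: gcgcccgCCGGAAGcagtcgcaagacctga
MRPL16: tgaacacaaCTTCCGGccccactgagcggt
MRPL49: gctgcgtgtcacgtcactgctgagcgaccg
These windows lie at chr3:139343979-139344008 (MRPS22), chr17:75012655-75012684 (MRPL58) and chr11:65122168-65122197 (MRPL49) on the plus strand, and at chr11:59810764-59810793 (MRPL16) on the minus strand. None of the 4 begins with a pyrimidine, and MRPL49 has no ETS core in this window. The windows of MRPL1, MRPS26 and MRPS9, which are not printed here, have no ETS core either.

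A TOP start, taken as a cytosine at the first base within an unbroken run of at least 5 pyrimidines, was found in 40 of the 58 cytosolic genes with a promoter sequence (69.0%). It was found in 5 of 67 mitochondrial genes (7.46%: MRPL44, MRPL45, MRPL53, MRPS27 and MRPS33) and in 4.04% of 27305 promoters in all. Motifs were searched on both strands from 250 bases before to 50 after the start. The ETS core CCGGAAG was in 34.5% of cytosolic and 40.3% of mitochondrial promoters, against 10.7% of all. AAGATGGCG, a YY1 site, was in 8.62% and 19.4%, against 1.85% of all. The E-box CACGTG, which MYC binds, was in 5.17% and 8.96%, against 7.43%. GCATGCGC, part of the site of the nuclear respiratory factor NRF1, was also in 5.17% and 8.96%, against 3.27%. ACAATG, a core of sites bound by SOX proteins, was in 1 cytosolic promoter (1.72%, RPL6) and 5 mitochondrial ones (7.46%: MRPL3, MRPL11, MRPL46, MRPS16 and MRPS18B), against 11.0% of all. Such matches are letters in a window and do not show binding.

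**Figure D1:**
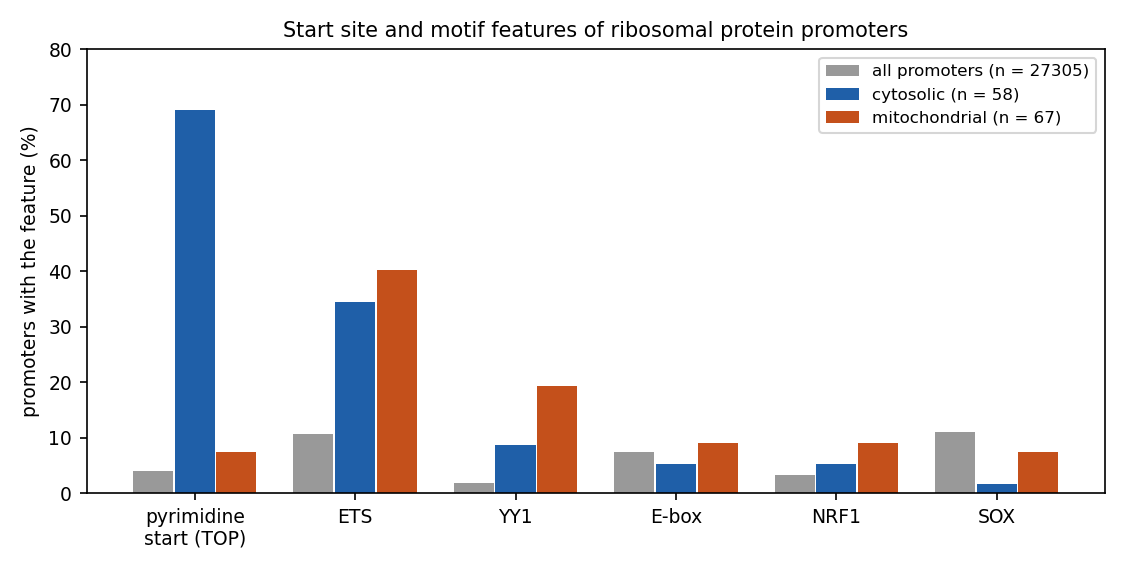
Share of promoters (vertical axis, percent) with a pyrimidine start or with each motif on either strand, for all promoters, cytosolic and mitochondrial ribosomal protein genes. The pyrimidine start stands at 69.0% of cytosolic promoters against 7.46% of mitochondrial ones, while the ETS core is at 34.5% and 40.3%.

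SOX2 siRNA moved no ribosomal protein gene far in either line. Of the 143 subunit genes, 0 reached a 1.5-fold difference in H520 and 0 in LK2, where 1.87% and 3.2% of all genes did (0.806% higher and 1.07% lower in H520, 1.9% higher and 1.3% lower in LK2). The widest differences were those of MRPS22 (-0.52 in LK2), MRPL53 (-0.52 in LK2) and RPL7A (-0.49 in LK2), all short of the 0.58 that 1.5-fold means on this scale. Over both lines, limma with cell line as a block called 0 of the 143 at an adjusted p under 0.05, and 0.0053% of all genes. The lowest adjusted p was 0.476, that of MRPL58. SOX2 itself was not called in this limma fit (adjusted p = 0.330). At an unadjusted p under 0.05 there were 1 of 68 cytosolic and 5 of 75 mitochondrial genes (1.47% and 6.67%), against 8.4% of all genes, so neither class held more such genes than the array as a whole.

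The changes that were seen were small and lay below 0 more often in cytosolic genes. In LK2, 49 of 68 cytosolic genes (72.1%) were below 0, and the class median was -0.08, with a lowest value of -0.49 and a highest of 0.36. In H520 they numbered 40 (58.8%) and the median was -0.03. Of all genes, 50.7% were below 0 in LK2 and 49.3% in H520, with medians of 0.00 in both. Mitochondrial genes were below 0 in 42 of 75 cases in LK2 (56.0%) and 40 in H520 (53.3%), with medians of -0.01 and -0.01. In bulk RNA, less message per cell and fewer cells with it cannot be told apart. The difference between the classes was not tested, since genes are not replicates and members of a class share arrays.

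In both lines together, 29 cytosolic genes (42.6%) were lower and 8 (11.8%) higher, against 27.0% and 27.0% of all genes. The 8 were RPL28, RPL36A, RPL37A, RPLP2, RPS6, RPS16, RPS25 and RPS3A. For mitochondrial genes the counts were 23 lower (30.7%) and 15 higher (20.0%). In LK2 the median was -0.09 for large and -0.07 for small cytosolic subunit genes, and in H520 both were at -0.03. Across the 68 cytosolic genes the changes of the 2 lines had a Pearson correlation of -0.11, and across the 75 mitochondrial genes one of 0.13, against 0.23 over all genes. These describe genes on 2 separate pairs of arrays and carry no p.

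Cytosolic genes also varied less among themselves than mitochondrial genes. For the cytosolic class the changes had an SD of 0.126 (H520) and 0.161 (LK2) between genes, and for the mitochondrial class of 0.174 and 0.193. Over all genes it was 0.212 and 0.26. The classes also differed in probes per gene, with 114 probes for 68 cytosolic and 108 for 75 mitochondrial genes, which was not adjusted for. The cytosolic spread is close to that between probes of 1 gene: the pooled SD between probes was 0.182 in H520 and 0.163 in LK2 over the 33 cytosolic genes with several probes. In H520 the probes of 20 of these 33 genes had opposite signs, and in LK2 those of 13. Over the 26 mitochondrial genes with several probes the pooled SD was 0.185 in H520 and 0.145 in LK2. The probes of 14 of these 26 had opposite signs in H520, and those of 10 in LK2. Differences of this size in a single gene are therefore within what probes of the same gene show.

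**Figure D2:**
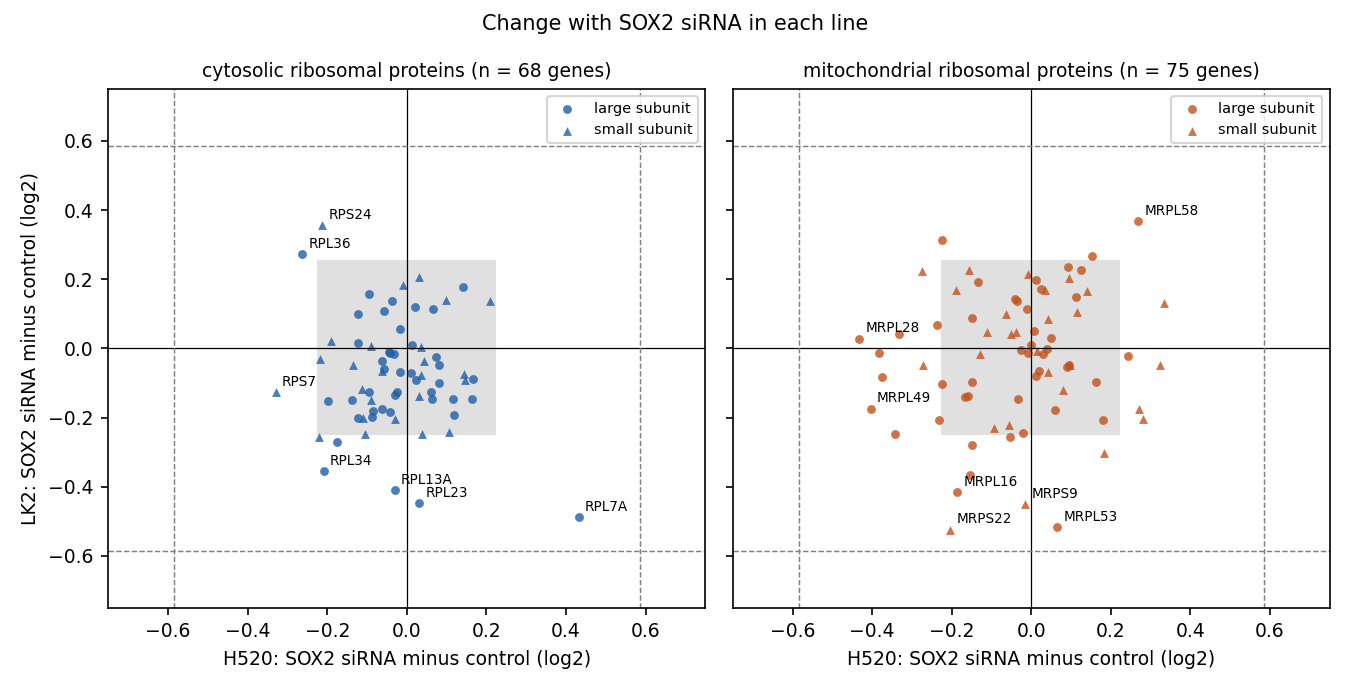
Change with SOX2 siRNA (log2) in H520 (horizontal) and LK2 (vertical) for each cytosolic and mitochondrial ribosomal protein gene, with circles for the large and triangles for the small subunit. Dashed lines mark 1.5-fold, which no gene shown reached, and the grey box spans percentiles 10 to 90 of all genes in each line.

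Among cytosolic genes with the same sign in both lines, RPL34 had the largest mean change. It stood at 0.55 and 0.34 on the H520 control and SOX2 siRNA arrays and at 0.07 and -0.28 in LK2, a change of -0.28 ± 0.10 (limma SE, adjusted p = 0.548). The treated array was lower in each line, and both of its probes gave this direction (-0.18 and -0.24 in H520, -0.33 and -0.38 in LK2). RPS2, a small subunit protein of the decoding side, was at 0.02 and -0.20 in H520 and 0.28 and 0.02 in LK2, a change of -0.24 ± 0.10 (adjusted p = 0.607). RPL23A, which lies at the exit of the peptide tunnel where the signal recognition particle docks, was at 0.08 and -0.10 and at 0.60 and 0.33.

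RPS7 was at 0.61 and 0.28 in H520 and -0.09 and -0.22 in LK2, but its probes differed in H520, at -0.13 and -0.53. RPL13A, a large subunit protein, was at 0.01 and -0.02 in H520 and at 0.40 and -0.01 in LK2, so that nearly all of its mean change came from the LK2 arrays. RPS3, at the entry of the mRNA channel, was at -0.05 and -0.15 and at 0.38 and 0.13, and RPL21 at 0.25 and 0.06 and at -0.06 and -0.21. RPS3A was the one with positive values among these 8 genes, from -0.14 to 0.07 in H520 and from -0.09 to 0.05 in LK2, though 1 of its 3 probes was at -0.05 in H520. The 8 had adjusted p-values from 0.548 to 0.749 by limma.

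Of the cytosolic genes with the largest change in a single line, RPL23, RPS24, RPL7A and RPL36 had the opposite sign in the other. RPL23, which can bind MDM2 when ribosome assembly is disturbed, was at 1.07 and 0.62 in LK2 and at -0.13 and -0.10 in H520. RPS24, a gene of Diamond-Blackfan anaemia, was at -0.03 and 0.32 in LK2 and at 0.14 and -0.07 in H520, and its LK2 change rests on 1 of its 2 probes (0.64 against 0.07). RPL7A went from -0.27 to 0.16 in H520 and from 0.57 to 0.08 in LK2, by 1 probe. RPL36 was at 0.68 and 0.42 in H520 and at -0.54 and -0.27 in LK2.

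Cytosolic proteins with roles beyond or at the edge of the ribosome had small values of either sign. RPLP1 and RPLP2 form the stalk that recruits elongation factors, and were at -0.09 and 0.16 (RPLP1) and 0.14 and 0.18 (RPLP2) in H520 and LK2. RPS6, the substrate of S6 kinases, was at 0.03 and 0.21. RPL5 and RPL11, which bind MDM2 and so link ribosome assembly to p53, were at -0.12 and 0.10 and at -0.03 and -0.02. RPS19, the gene most often mutated in Diamond-Blackfan anaemia, was at -0.19 and 0.02, RPL3 at 0.07 and -0.03 and RPL10 at -0.04 and 0.14. By limma their adjusted p-values ran from 0.774 (RPLP2) to 0.990 (RPL5).

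Of the mitochondrial genes, MRPS22, a small subunit protein, had the largest mean change, at -0.36 ± 0.12 (limma, adjusted p = 0.482). It was at 0.31 and 0.11 on the H520 arrays and at -0.69 and -1.21 in LK2. MRPL58, a peptidyl-tRNA hydrolase that frees stalled mitochondrial ribosomes, was higher with the siRNA in each line, from -0.13 to 0.14 in H520 and from 0.13 to 0.49 in LK2, a change of 0.32 ± 0.10 (adjusted p = 0.476). It was the one subunit gene past 1.2-fold in the same direction in both lines.

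MRPL16 was at 0.25 and 0.06 in H520 and 0.25 and -0.16 in LK2. MRPL13 went from 0.64 to 0.29 and from 0.04 to -0.21, MRPL49 from 0.33 to -0.07 and from -0.03 to -0.21, and MRPL1 from 0.31 to 0.15 and from 0.22 to -0.15. The treated array was the lower of the pair in each of these genes and lines. MRPS26 was higher with the siRNA, by 0.33 in H520 and 0.13 in LK2, and MRPS9 was at -0.01 and -0.45.

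In H520 the mitochondrial genes with the largest change were MRPL28 (-0.43 against 0.03 in LK2), MRPL49, MRPL30 (-0.38 against -0.01) and MRPL54 (-0.38 against -0.08). The value of MRPL30 rests on 1 of its 2 probes, at -0.66 against -0.11. In LK2 they were MRPS22, MRPL53, MRPS9 and MRPL16. MRPL12, which binds the mitochondrial RNA polymerase, was at -0.22 in H520 and -0.10 in LK2.

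**Figure D3:**
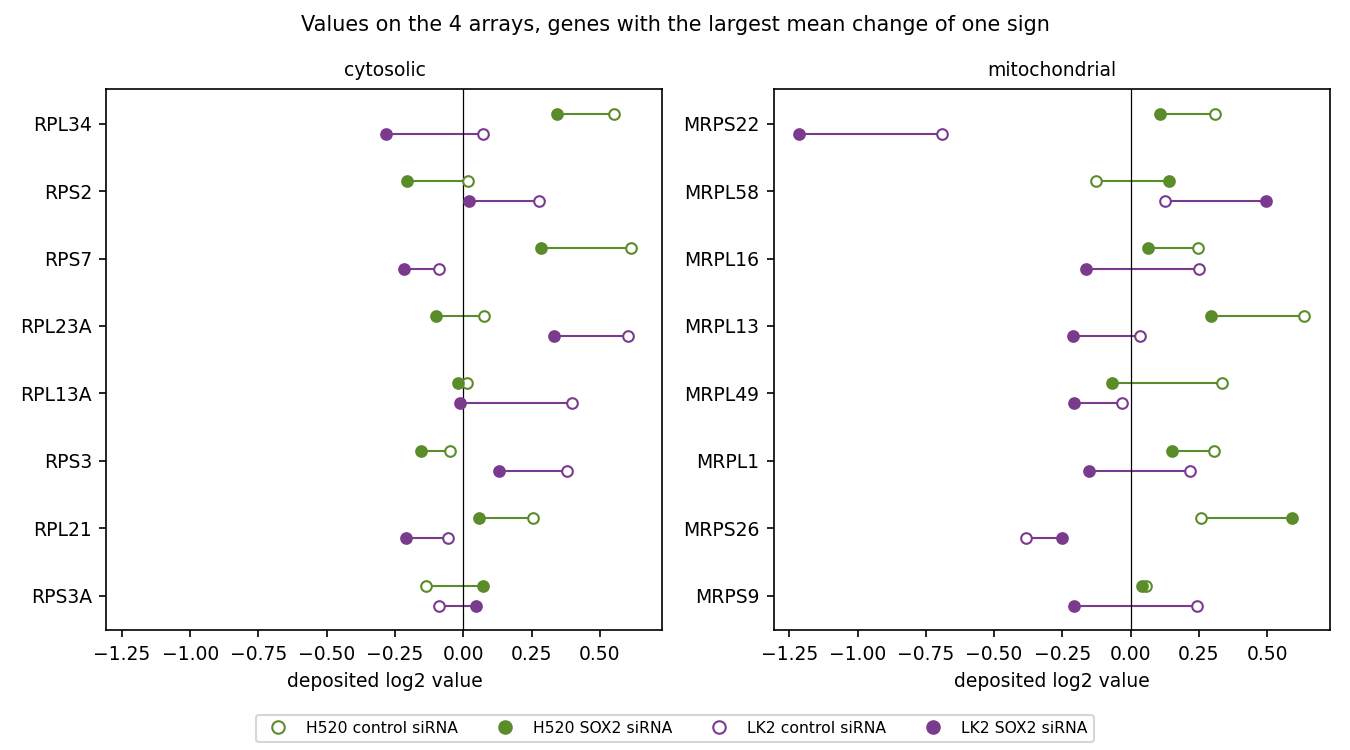
Deposited log2 values (horizontal axis) on the 4 arrays for the 8 cytosolic and 8 mitochondrial genes with the largest mean change of one sign. Open circles are control siRNA and filled circles SOX2 siRNA, joined within a line. MRPS22 has its LK2 arrays at -0.69 and -1.21, left of its H520 arrays at 0.31 and 0.11, and MRPL58 has its filled circle right of the open one in both lines.

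At a lower threshold of 1.2-fold, 16 subunit genes were past it in H520 and 17 in LK2. In H520 these were 1 cytosolic gene higher (RPL7A) and 2 lower (RPS7 and RPL36), and 5 mitochondrial genes higher and 8 lower, against 7.03% of all genes higher and 7.77% lower. In LK2 they were 2 cytosolic genes higher (RPS24 and RPL36) and 5 lower (RPL7A, RPL23, RPL13A, RPL34 and RPL23A), and 3 mitochondrial genes higher and 7 lower, against 9.3% higher and 8.99% lower. Either way, 14.8% of all genes were past 1.2-fold in H520 and 18.3% in LK2. The share of each class was under that background in each line, apart from the 13 of 75 mitochondrial genes in H520.

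Cytosolic genes with and without a TOP start had close medians. For the 40 with one, the median was -0.02 (H520) and -0.09 (LK2), and for the 18 without, -0.03 and -0.07. In LK2, 25 of the 40 (62.5%) and 16 of the 18 (88.9%) were below 0, a difference that was not tested. Of the paralogues, RPL39L, a copy of RPL39 best known from testis and some tumours, had the largest mean change of the 169 symbols, at -0.41 ± 0.10 (limma, adjusted p = 0.363). It was at 0.59 and 0.23 on the H520 arrays and 0.18 and -0.28 in LK2, and both probes gave this direction in each line. RPL39 itself was at 0.02 in H520 and -0.09 in LK2.

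In the other pairs the paralogue and its parent gene were as follows. RPL22L1 was at -0.20 and 0.06 and RPL22 at 0.16 and -0.15 in H520 and LK2. RPS27L, a known p53 target, was at -0.01 and 0.31, and RPS27 at 0.04 and -0.04. RPL7L1 was at 0.19 and 0.12, RPL7 at -0.02 and -0.07, RPL26L1 at -0.02 and 0.01, and RPL26 at -0.04 and -0.18. RPL36AL was at 0.09 and -0.11, RPL36A at 0.02 and 0.12, the muscle paralogue RPL3L at 0.01 and 0.01 and the testis paralogue RPL10L at -0.03 and -0.20. The 15 pseudogene symbols had medians of -0.03 and 0.05 and ranged from -0.34 to 0.24, and RPS19BP1 was at -0.18 and -0.13. Probes of subunits, paralogues and pseudogenes can share target sequence, so values of near-identical copies cannot be told apart with certainty.

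Of 46 ribosome assembly genes, 17 lay above 0 in both lines and 10 below (37.0% and 21.7%, against 27.0% and 27.0% of all genes, a difference that was not tested), and their median was 0.07 in H520 and 0.02 in LK2. FBL, the methyltransferase that modifies ribosomal RNA, was at -0.32 and -0.47. POLR1C, a shared subunit of RNA polymerases I and III, was at 0.24 and 0.53, and NOC2L at -0.41 and -0.22. MYC, the one member past 1.5-fold in H520, was at 0.59 there and -0.05 in LK2 and is named after its values were seen. None was called by limma over all genes, and 6 of 46 (13.0%) had an unadjusted p under 0.05, against 8.4% of all genes.

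Of 26 genes of mitochondrial translation and transcription, 14 lay above 0 in both lines and 5 below (53.8% and 19.2%, against 27.0% and 27.0% of all genes, also not tested), with medians of 0.01 and 0.04. The transcription factor gene TFB2M was at 0.23 and 0.42, POLRMT, the mitochondrial RNA polymerase, at 0.03 and 0.59, and the GTPase gene NOA1 at -0.06 and -0.37. Translation factor and other genes with TOP mRNAs (19 genes) had medians of -0.05 and -0.09, near those of the cytosolic subunits, with 7 lower and 2 higher in both lines. HNRNPA1 was at -0.12 and -0.46, EEF1G at -0.08 and -0.37 and PABPC1 at 0.13 and 0.19.

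Of 21 genes of mTOR signalling and TOP control, 6 lay above 0 in both lines and 6 below. DEPTOR, an mTOR inhibitor, was at 0.41 and 0.21, EEF2K at -0.21 and -0.32 and RPS6KB2 at -0.19 and -0.30. DDIT4 and SESN2, stress-induced inhibitors of mTOR, were past 1.5-fold in LK2, at 1.47 and 0.95, and were at -0.06 and -0.07 in H520. They are named after their values were seen. Of the subunits whose symbols have no ribosomal stem, FAU was at -0.07 and -0.06, GADD45GIP1 at -0.20 and -0.02 and CHCHD1 at 0.10 and 0.13. None of the members of these lists was called by limma for the siRNA.

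The lines differed from each other in many more ribosomal protein genes than treated and control arrays did. Values of the 2 arrays of each line were compared in the same limma fit, with siRNA as a block. The LK2 arrays were called higher in 13 of 68 cytosolic genes (19.1%) and the H520 arrays in 14 (20.6%). For the 75 mitochondrial genes these counts were 10 (13.3%) and 21 (28.0%). Over all genes, 14.0% were called with LK2 higher and 13.4% with H520 higher.

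In the authors' table of scanner intensities, whose 4 columns carry no sample label, the column medians were 69.6, 73.2, 150.1 and 147.0. A pair of columns was thus brighter than the other pair. Which lines these are is not stated, and if the pairs follow the lines, line and array run cannot be told apart. The p-values rest on 1 residual degree of freedom per gene, moderated across genes. In a fit of cell line and siRNA, that residual is how far the siRNA change differed between the lines. It is not a spread between replicate arrays of a line, since each group had 1 array. A line call therefore sets the gap between the lines against this disagreement in siRNA change, after moderation. Variation between cultures of the same line was not measured.

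Mitochondrial ribosomal protein genes lay more often lower in LK2 than in H520, with 51 of 75 below 0 (68.0%) against 47.7% of all genes. In the related lists this share was 61.5% for mitochondrial translation, 63.0% for ribosome assembly and 60.0% for subunits without a ribosomal stem. It was 31.6% for translation factor and other genes with TOP mRNAs and 38.1% for mTOR and TOP control. Both LK2 arrays were below both H520 arrays in 39 of the 75 mitochondrial ribosomal protein genes (52.0%) and above in 17 (22.7%). Over all genes these shares were 30.3% and 32.6%. The median difference, LK2 minus H520, was -0.18 for the class, -0.18 for the large and -0.21 for the small subunit, and 0.01 over all genes. MRPL54 was lowest, at 0.61 and 0.24 on the H520 arrays and -0.81 and -0.90 in LK2, a difference of -1.28 ± 0.12 (limma, adjusted p = 0.000654). MRPS22 followed at -1.16 ± 0.12 (adjusted p = 0.00102), then MRPL34 at -0.85, MRPL3 at -0.83 and MRPL19 at -0.81. The 2 probes of MRPL3 gave -0.49 and -1.17, while MRPL54, MRPS22, MRPL34 and MRPL19 had 1 probe each.

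A smaller set of mitochondrial genes stood higher in LK2. MRPL38 was at -0.08 and -0.12 on the H520 arrays and 1.13 and 1.27 in LK2, a difference of 1.30 ± 0.11 (limma, adjusted p = 0.000463). MRPS10 was higher by 1.08, MRPS25 by 0.77, MRPL40 by 0.65 and MRPS21 by 0.63, with both MRPS21 probes above 0 (0.77 and 0.50). MRPL12 was higher by 0.60 ± 0.10 (limma, adjusted p = 0.00713). MRPL38, MRPS10, MRPS25, MRPL40 and MRPL12 had 1 probe each. Proteins of the same particle thus stood on both sides, from -1.28 to 1.30.

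**Figure D4:**
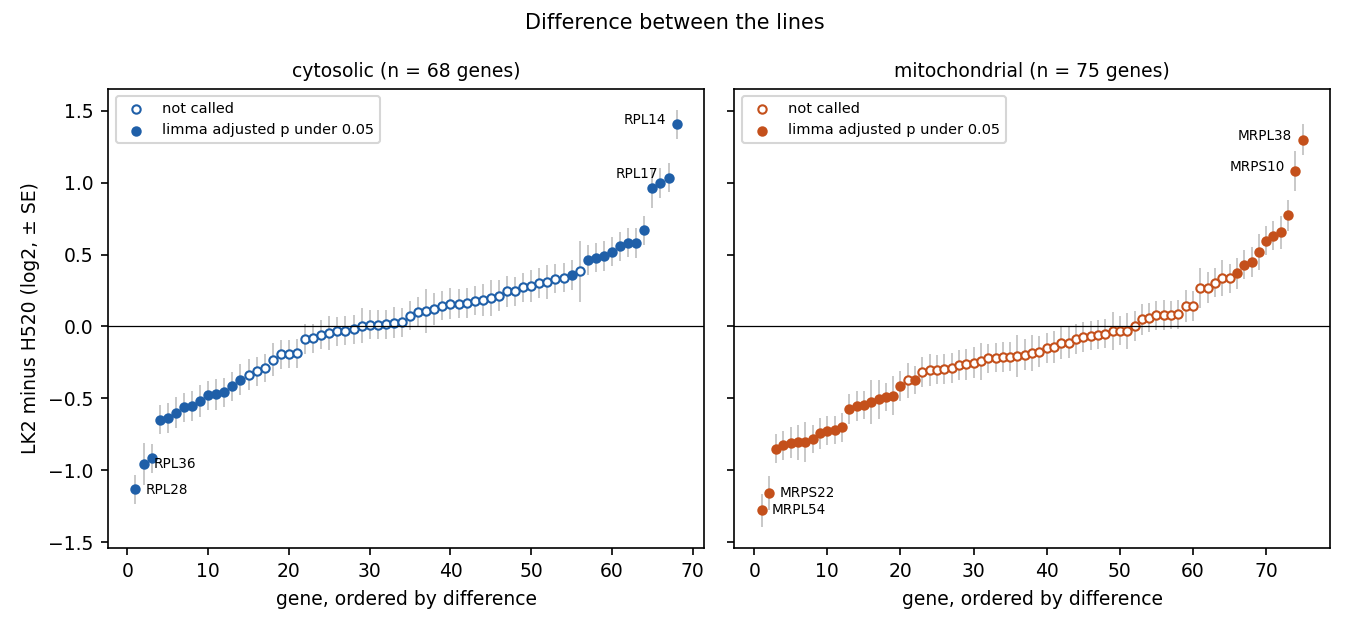
Difference between the lines (vertical axis, LK2 minus H520, log2, with the limma SE as bars) for each gene in order of its value. Filled points passed an adjusted p under 0.05, 13 higher and 14 lower in LK2 for the cytosolic class and 10 higher and 21 lower for the mitochondrial class.

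In the cytosolic class, both LK2 arrays were above both H520 arrays in 28 genes (41.2%) and below in 21 (30.9%). Over all genes these shares were 32.6% and 30.3%. Of 43 large subunit genes, 29 were above 0 (67.4%, against 52.3% of all genes). Of the same 43, 10 were called higher in LK2 and 7 in H520, with a median of 0.16. Of 25 small subunit genes, 3 were called higher in LK2 and 7 in H520, with a median of -0.03. The shares called over all genes were 14.0% with LK2 higher and 13.4% with H520 higher. The difference between subunits was not tested. RPL14 had the highest value, at 0.02 and -0.02 on the H520 arrays and 1.47 and 1.34 in LK2, a difference of 1.40 ± 0.10 (limma, adjusted p = 0.00031). It rests on 1 of its 2 probes, at 2.65 against 0.16 by the other. RPL37 (0.999) also rests on 1 probe, at 1.84 against 0.16, whereas the 3 probes of RPL17 (1.03) gave 1.25, 0.72 and 1.14. RPL23 was higher in LK2 by 0.96 and RPL7 by 0.67, each by 1 probe.

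RPL28 was lowest of the cytosolic genes, at -0.01 and 0.01 on the H520 arrays and -1.14 and -1.13 in LK2, a difference of -1.13 ± 0.10 (limma, adjusted p = 0.000592). Its SOX2 siRNA and control arrays differed by 0.01 in each line. RPL36 was at -0.95, with probes at -0.49 and -1.41, RPS21 at -0.92, RPL29 at -0.65 with probes at -0.59 and -0.71, and RPS28 at -0.64. RPL28, RPS21 and RPS28 had 1 probe each. RPLP1 was called at -0.52, but its 3 probes stood at -1.42, -0.01 and -0.13. Over the 33 cytosolic genes with several probes, the pooled SD between probes of a gene was 0.538 for this difference, against 0.259 over 26 mitochondrial genes.

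**Figure D5:**
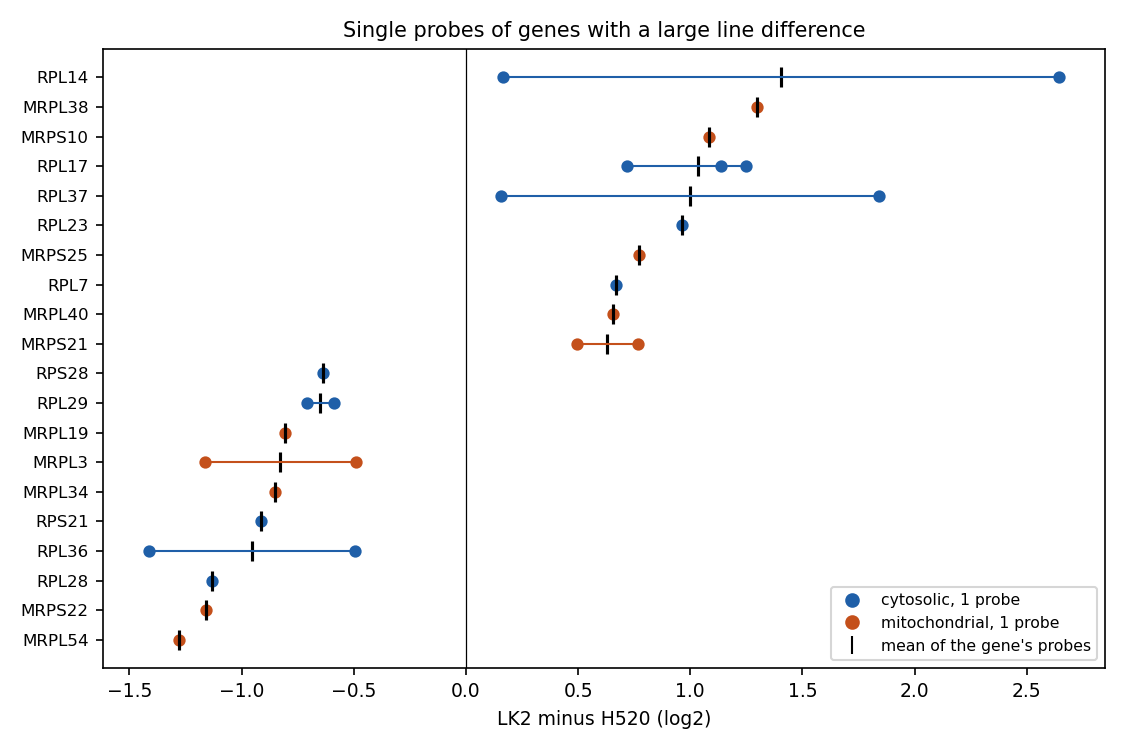
Difference between the lines (horizontal axis, log2) by each probe of the genes with the highest and lowest values, blue for cytosolic and orange for mitochondrial, with a black tick at the mean of a gene's probes. RPL14 spans 0.16 to 2.65 and RPL37 0.16 to 1.84, while the probes of RPL29 and MRPS21 lie close together.

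Of the genes called between the lines, 15 cytosolic and 10 mitochondrial ones had several probes. All probes of a gene had the same sign in 14 of the 15, the exception being RPS15A, and in 10 of the 10. The calls were made on the mean of these same probes, so this agreement is no independent check. Over all genes with several probes, signs were mixed in 13 of 33 cytosolic and 7 of 26 mitochondrial genes. Among paralogues, RPL22L1 was higher in LK2 by 1.21 ± 0.11 (limma, adjusted p = 0.000721), at 0.04 and -0.17 on the H520 arrays and 1.12 and 1.18 in LK2. RPL22, the gene whose product is known to restrain RPL22L1 in mouse, was at -0.05. Both RPL22L1 and RPL22 were measured by 1 probe each. RPS27L was higher in LK2 by 0.52, by 1 of its probes (1.03 against 0.01), while RPS27 was lower (-0.42). RPL39L (-0.46) and RPL26L1 (-0.39) were higher in H520, and RPL39 and RPL26 differed by 0.01 and -0.03. CHCHD1, a small subunit protein of the mitochondrial ribosome without a ribosomal symbol, was lower in LK2 (-1.34, limma, adjusted p = 0.000337).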

How the data were processed

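Values were the authors' deposited log2 values of 48801 probes on 4 arrays. Their tool, like their normalization, is not given in the sources used here. The base was settled by setting differences between arrays against differences of log2 scanner intensities, with slopes of 0.896 and 1.06 in the best matches (correlations 0.994 and 0.993). The 4 scanner columns match no sample label and entered no result. All 4 value columns had a mean of 0.00475 and lie around 0, so they are relative values. What they were centred on is unknown. The number of arrays limits precision.

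Probes were named from the platform annotation: 28096 had 1 symbol, of which 28057 matched RefSeq (GRCh38.p14) by Entrez identifier, 13 had several and 20692 were not listed there. Probes of the same gene were averaged. limma 3.58.1 in R 4.3.3 fitted cell line and siRNA over all 18852 genes (1 residual and 5.19 prior degrees of freedom, two-sided, Benjamini-Hochberg), and was tested on simulated data. The 2 lines act as replicates, paired by the labels' cell line. Within a line, differences were counted at 1.5-fold, with 1.2-fold and 2-fold as alternatives. Genes were named by rank of change, mean change and line difference within each class, plus fixed members and paralogue pairs. Members and lists were chosen with earlier results of these data known. Of 125 related genes in 5 lists, 117 were measured. 1 mitochondrial gene and the values of Y-linked copies are not reported here.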

Additional observations from a re-analysis of the deposited data

Results flagged for a closer look

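In 2 cytosolic genes the lines moved opposite ways by at least 1.2-fold each, a difference that was not tested. RPL7A, measured by 1 probe, was at 0.43 in H520 and -0.49 in LK2. RPL36 was at -0.26 in H520 and 0.27 in LK2, and in H520 its probes stood at -0.60 and 0.08.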

How the results depend on the processing

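In the main fit 1 of 18852 genes was called for the siRNA, and SOX2 itself was not (limma, adjusted p = 0.330). A count of 0 called genes therefore cannot show that none changed. No subunit gene was called for the siRNA under any of the 6 other settings of the fit. These were median of probes, 1 probe per gene, separate probes, a variance trend, robust eBayes and no block for cell line. Without that block the count at an unadjusted p under 0.05 went from 6 to 0. Leaving out a line leaves the other line's own values with no test. The cytosolic median, -0.0395 over both lines, was then -0.0823 in LK2 alone and -0.0303 in H520 alone. The mitochondrial median, -0.0114 over both lines, was -0.0146 in LK2 alone and -0.0108 in H520 alone. The LK2 values of both classes were counted as moved. For a median this meant a shift not smaller than the SD of the medians of the 2 lines. That limit comes from the same medians, so the label does not show that a shift was large. With 1 probe per gene, chosen for the largest SD over the arrays, 2 genes passed 1.5-fold in H520 (MRPL30 at -0.66 and RPL36 at -0.60). At 1.2-fold the counts were 16 in H520 and 17 in LK2. The other 58 of 64 recomputed values were counted as unchanged. For a count this was defined as equal to the reported one or within 1.5 times it, and some were 0 in both. The counts of genes called between the lines were among the 58 under every setting of the fit. Normalization from the scanner intensities was not run, because their columns carry no sample label.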
